A study of Mus musculus with 32 samples.

Results

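The passage from the unfertilised egg to the early 2-cell embryo was followed in material labelled as lacking Trp53, as all genes that reached 1 FPKM in at least 3 of 9 libraries. FPKM is the number of reads relative to gene length and library depth. Of 54532 genes in the table, 8305 met this rule. The 9 libraries were 3 single metaphase II eggs labelled Trp53 KO and 6 single early 2-cell embryos labelled Trp53 MZ-KO, out of 32 libraries in 6 groups. MZ-KO embryos came from KO mothers and KO fathers, and their targeted allele lacks exons 2 to 10 of Trp53 after Ddx4::Cre, a driver active in germ cells, removed the floxed segment. The comparison groups were 3 WT eggs and 8 WT early 2-cell embryos, whose parents were Trp53 flox/flox animals that kept these exons. All animals had a mixed background described as Bl6/C57, and the hormone protocol in the labels gives 5 U of PMSG and 5 U of hCG. Embryos of both genotypes were taken 28 to 32 hours after hCG, having been grown in KSOM medium. The number of mothers is not in the labels, so the p-values measure the spread between single eggs and embryos, which may be siblings.

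A grown egg is transcriptionally silent and lives on RNA stored during its growth. After fertilisation that store is translated and then degraded, and the embryo starts to transcribe its own genome at the 1-cell and 2-cell stages. In the mouse the transcription factor Dux activates a group of 2-cell genes, among them the Zscan4 family, in this window. Trp53 encodes p53, which switches on cell cycle arrest, repair and apoptosis genes in stressed cells, and the study asked what its loss does to this course.

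The 3 eggs held 6308, 6677 and 6703 genes at 1 FPKM or more, and the 6 embryos held 7325 to 7653 (median 7561). The groups did not overlap, and the embryos exceeded the eggs by 941.5 genes on average (exact two-sided permutation test, p = 0.024, the smallest that 3 against 6 libraries allow). Depth did not separate the groups: the FPKM step of a single read put 13600000 to 22200000 reads in a library. Eggs correlated with each other at 0.951 to 0.963, embryos at 0.910 to 0.963, and eggs with embryos at 0.771 to 0.841 (Pearson's r over the 8305 genes). Among the embryos, numbered in the order of their columns, libraries 1 to 3 stood apart from 4 to 6. Pairs inside these sets correlated at 0.937 to 0.963 and pairs across them at 0.910 to 0.935, so the total counts, and the list counts that this moves, are also given without each set.

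Of 10 markers of the early 2-cell embryo 8 were tested and called higher, but 5 of these passed the filter through the embryos alone and so could only be higher. The summed level of the 10 was 19.3 to 28.4 FPKM in the eggs and 66.7 to 169.8 in the embryos. Of 11 tested egg markers, none of which passed through 1 group alone, 7 fell and 2 rose. Over all 8305 tested genes, 29.2% were called higher and 20% lower. Markers of other cells were low: 1 of 22 cumulus and granulosa markers was tested, 1 of 16 sperm markers and 0 of 16 blood markers. The summed level of the cumulus list was 10.7 to 14.02 FPKM in the eggs and 4.01 to 6.01 in the embryos, most of it Serpine2, a secreted protease inhibitor that fell by 1.43 on the log2 scale. The sperm list summed to 2.22 to 3.01 FPKM in eggs and 3.54 to 5.17 in embryos, and the blood list to 0.148 to 0.816 and 0.19 to 5.57. Of these lists 6, 3 and 6 genes were at 0 in all 9 libraries.

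Trp53 itself (ENSMUSG00000059552, mm10 chromosome 11, 69580359 to 69591873, plus strand) was present in the eggs labelled KO at 8.45, 9.81 and 6.33 FPKM, and in the MZ-KO embryos at 0.311 to 1.105 (median 0.856). The WT eggs had 6.16, 7.16 and 10.3 FPKM and the WT embryos 2.603 to 9.29 (median 6.29). The eggs labelled KO therefore overlapped the WT eggs, so these values do not set them apart. The MZ-KO early embryos lay below every WT early embryo. At the late 2-cell stage MZ-KO embryos had 1.48 to 5.39 FPKM and WT embryos 0.557 to 7.09, which overlap. Trp53 fell over the knockout-labelled course (log2 difference -2.38, SE 0.19, limma adjusted p = 1.7e-05), 10.6-fold by the group means. The value covers the whole gene and does not separate the deleted exons from those that remain. Every statement below on the course therefore concerns eggs labelled KO, whose genotype these values do not bear out.

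Between egg and embryo, 4086 of the 8305 genes were called (limma on log2(FPKM + 1), Benjamini-Hochberg adjusted p below 0.05), or 49.2%. Of all tested genes 2421 (29.2%) rose and 1665 (20%) fell, and the median log2 difference was 0.09. With this filter, large changes were also more often rises: 1312 called genes (15.8%) rose by 1 or more on the log2 scale and 546 (6.57%) fell by as much, 299 (3.6%) and 90 (1.08%) by 2 or more, and 51 (0.614%) and 12 (0.144%) by 3 or more. Groups did not overlap in 45.1% of all tested genes, and in 3574 of the called ones. FPKM gives a gene's share of the library, and the kit primes on poly(A) tails, so a change in RNA amount, in tail length or in the rest of the library cannot be told apart. Scaling the libraries to the median ratio moved the median difference by -0.14 to -0.05 and changed the split to 2112 higher and 2217 lower, so that 48.8% of calls were higher in place of 59.3%.

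The filter shaped these counts. Of the tested genes 4446 were at 1 FPKM or more in all 9 libraries, and of these 1026 rose and 1056 fell. Another 1326 reached that level in embryos alone, 938 of them called, all higher, and 183 in eggs alone, 173 of them called, all lower. The rule is uneven here: a gene could pass through 3 of the 6 embryos, but through eggs alone it needed all 3. The counts by size of change above are given neither by this split nor with scaling. Without MZ-KO libraries 1 to 3, 2234 genes rose and 1627 fell, and without libraries 4 to 6, 1877 rose and 1440 fell. These sets were left out as alternatives chosen after seeing the data.

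**Figure D1:**
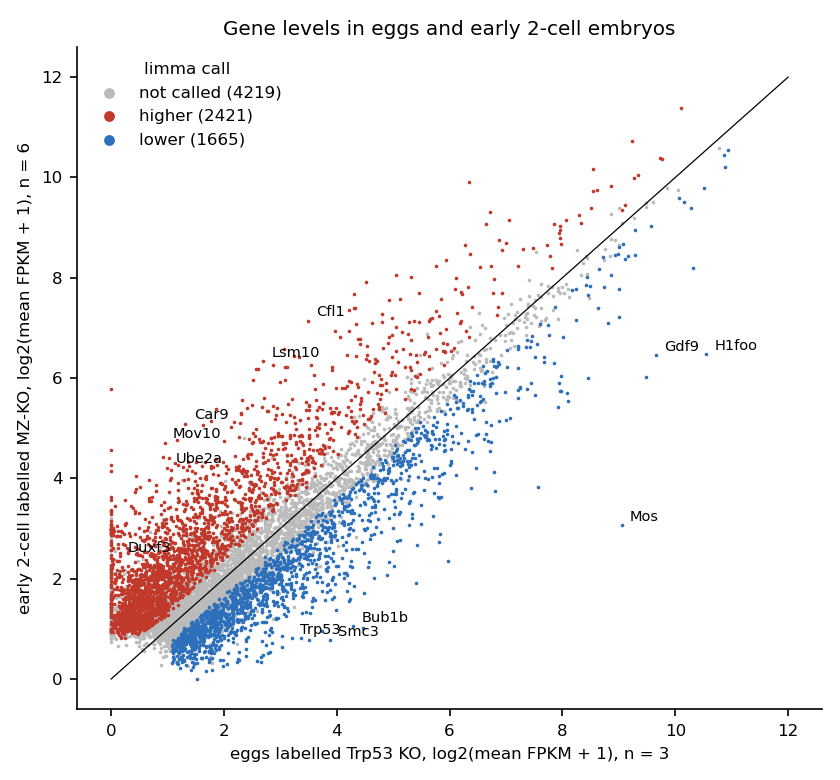
Mean level of each of the 8305 tested genes in 3 eggs labelled Trp53 KO (x axis) and 6 early 2-cell embryos labelled MZ-KO (y axis), as log2(mean FPKM + 1), coloured by the limma call. The 2421 higher genes lie above the line of equal levels and the 1665 lower genes below it, with Mos, H1foo and Gdf9 the abundant egg transcripts farthest below.

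Mos and H1foo led the 12 largest falls. These, and the 12 largest rises below, were taken only from called genes whose groups did not overlap. Over all tested genes, groups did not overlap in 45.1%. Mos (ENSMUSG00000078365, chromosome 4, 3870657 to 3872105, minus strand), the kinase that holds the egg in metaphase II through MAP kinase, had 419.9, 797 and 371 FPKM in the eggs and 3.49 to 12.1 (median 7.21) in the embryos. It fell 71.5-fold by the group means (log2 difference -5.99, SE 0.36, limma adjusted p = 3.9e-06). H1foo (ENSMUSG00000042279, chromosome 6, 115944938 to 115950236, plus strand), the linker histone of the oocyte, had 1203, 1682 and 1617 FPKM in eggs and 55.1 to 123 (median 83.6) in embryos. For both genes every embryo lay below the lowest egg.

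Gdf9 (ENSMUSG00000018238, chromosome 11, 53431023 to 53437904, plus strand), a growth factor that the oocyte sends to its follicle cells, stood at 716, 879.8 and 811 FPKM in eggs and 54.6 to 112 (median 84.3) in embryos (log2 difference -3.22, SE 0.21, limma adjusted p = 4.6e-06). Bub1b (ENSMUSG00000040084, chromosome 2, 118598211 to 118641591, plus strand), the spindle checkpoint kinase BubR1, went from 18.02, 15.8 and 22.05 FPKM to 0.535 to 1.58 (median 1.15) (log2 difference -3.25, SE 0.19, limma adjusted p = 3.5e-06). Smc3, a cohesin subunit, went from 13.4, 13.7 and 13.8 FPKM to 0.098 to 1.26 (median 0.709). In each of these genes the groups did not overlap, which the rule for naming them required. The other 7 of the 12 largest falls were Rdx (-3.06), Zcrb1 (-2.83), Alg10b (-2.76), Smc4 (-2.75), Taldo1 (-2.74), Fam69b (-2.68) and Arrdc2 (-2.65), given as log2 differences. Smc4 encodes a condensin subunit, Rdx radixin, which links actin to the membrane, Zcrb1 a protein of the minor spliceosome, and Taldo1 the transaldolase of the pentose phosphate pathway.

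Cfl1, Car9 and Mov10 were among the 12 largest rises. Cfl1 (ENSMUSG00000056201, chromosome 19, 5490455 to 5495201, plus strand), cofilin, which severs actin filaments, had 10.2, 10.9 and 9.35 FPKM in eggs and 117 to 162 (median 140.2) in embryos, 13.8-fold higher (log2 difference 3.66, SE 0.13, limma adjusted p = 3.4e-07). Car9 (ENSMUSG00000028463, chromosome 4, 43506966 to 43513729, plus strand), a carbonic anhydrase, went from 1.601, 1.37 and 1.51 FPKM to 20.4 to 44.1 (median 34.99) (log2 difference 3.73, SE 0.22, limma adjusted p = 3.8e-06). Mov10, an RNA helicase, went from 2.23, 0.322 and 0.229 FPKM to 9.14 to 36.9 (median 26.9) (log2 difference 3.75, SE 0.49, limma adjusted p = 0.00022). Embryos 1 to 3 had 34.6, 36.9 and 36.7 FPKM of Mov10 and embryos 4 to 6 had 14.6, 19.3 and 9.14, all above the highest egg.

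Lsm10, a subunit of the U7 particle that trims histone mRNA, had 8.13, 5.81 and 2.505 FPKM in eggs and 43.97 to 105 (median 82.2) in embryos. Ube2a, a ubiquitin-conjugating enzyme, went from 0.833, 1.61 and 0.511 FPKM to 15.7 to 22.1 (median 16.9). Derl3, of endoplasmic reticulum degradation, went from 7.27, 4.57 and 2.29 FPKM to 35.7 to 78.4 (median 63.7). In these 3 genes eggs and embryos did not overlap either, which the rule for naming them required. The other 6 of the 12 largest rises were Oser1 (3.63), Samd10 (3.56), Nit1 (3.35), Cd7 (3.29), Rnf181 (3.23) and Dedd (3.15). Nit1 and Dedd overlap each other in the genome, Samd10 overlaps Prpf6 and Rnf181 overlaps Tmem150a, and the values do not tell their reads apart.

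**Figure D2:**
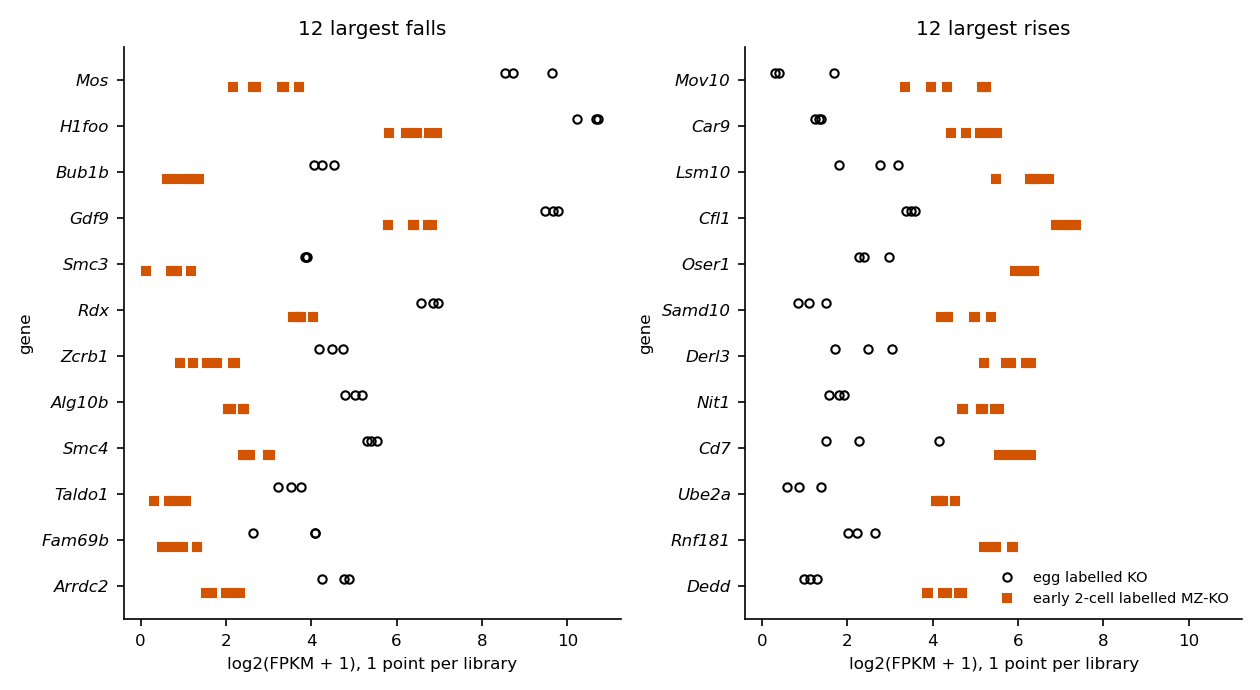
Level of the 12 genes with the largest falls (left) and the 12 with the largest rises (right), as log2(FPKM + 1), with 1 point per library: circles are the 3 eggs labelled KO, squares the 6 embryos labelled MZ-KO. The groups do not overlap in any of the 24 genes, which the rule for naming them required.

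Stored mRNAs of the egg are known to carry short U-rich letters near their 3′ end, UUUUAU or UUUUAAU, where the protein CPEB binds and controls tail length. The last 100 bases of the GENCODE transcripts were searched for these letters in the DNA alphabet, on the transcript's strand. The sets below are the first 3 of the largest falls and of the largest rises in which they were found. Capitals mark TTTTAT or TTTTAAT and, where it lies in the window, the polyadenylation signal AATAAA. The 30-base windows lie in the 3′ UTR at mm10 chr6:115950163-115950192 (H1foo, plus strand), chr2:118641559-118641588 (Bub1b, plus strand) and chr11:53437860-53437889 (Gdf9, plus strand). For the rises they lie at chr2:181595246-181595275 (Samd10, minus strand), chr6:72359720-72359749 (Rnf181, minus strand) and chr7:128205463-128205492 (Cox6a2, minus strand).
H1foo: tgaagcTTTTATtgtctaataagctgtcac
Bub1b: tgtgtaTTTTATAATAAAatagtttttgtt
Gdf9: ctgtggTTTTATgtgacggaagAATAAAct
Samd10: gtcactTTTTATatatactctgacaaaaaa
Rnf181: gaattcTTTTAATagatataaaaaagtact
Cox6a2: ttttcaTTTTATtttttaaaaatttataca
Cox6a2, a cytochrome c oxidase subunit, rose by 3.10 on the log2 scale, from 0.271 ± 0.242 FPKM (SD, n = 3) to 9.91 ± 1.92 (SD, n = 6).

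The letters were found in 31.0% of 1175 protein-coding genes that fell, 22.1% of 2428 that were not called and 12.6% of 1499 that rose, against 21.3% of all 5102 searched. The same letters in reverse order, TATTTT or TAATTTT, gave 29.4%, 21.8% and 15.4%, which differ between the sets in the same order. The AT content of the last 100 bases had medians of 68% in genes that fell, 66% in those not called and 61% in those that rose. In 4 ranges of AT content, from the lowest to the highest, the median log2 difference of genes with and without the letters was 0.04 and 0.41, -0.15 and 0.15, -0.22 and -0.05, and -0.22 and -0.15. For the reversed letters it was 0.33 and 0.40, 0.04 and 0.12, -0.12 and -0.08, and -0.27 and -0.12. The part of AT content or of the letters in these differences was not tested. The AT ranges and the reversed letters were chosen after seeing the data. Genes that fell were also longer than those that rose, with median 3′ UTRs of 1042 and 776 bases, 9 and 6 exons and spans of 25525 and 12830 bp. Over all 5102 genes searched the medians were 900 bases, 8 exons and 17197 bp. Introns count in the length behind these FPKM values, so a gene's span also bears on whether it passes the filter. The part of the filter in these differences was not tested.

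By gene class, 29.4% of 5502 protein-coding genes rose and 22.7% fell. Among 1106 long non-coding genes 33.6% rose and 14.5% fell, and among 1408 pseudogenes 26.6% rose and 16.8% fell. How reads shared between a pseudogene and its parent gene were counted is not given, so the pseudogene shares are uncertain. Small RNA genes, which this kit does not target and which often lie inside other genes, numbered 251, of which 19.5% rose and 7.17% fell.

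Genes were then grouped into 23 lists by function. For the main counts, the shares over all tested genes were 29.2% higher and 20% lower, and the median was 0.09. Over all genes, median-ratio scaling gave 2112 higher and 2217 lower of 8185, and no filter 2317 and 1586 of 31148. Without libraries 1 to 3 the counts were 2234 and 1627 of 7454, and without libraries 4 to 6, 1877 and 1440 of 7389. Leaving out overlapping genes gave 1173 and 755 of 3887. List counts with no filter keep the members tested in the main fit. The lists overlap in part and were tested gene by gene over all 8305 genes, not as sets. Median-ratio scaling turned the medians of the storage and the immediate early lists from 0.00 and 0.03 to -0.15 and -0.08 and no other list's sign. Where scaling, dropping the filter or leaving out a set of embryo libraries moved a list's count of rises or falls by over 1.5 times or turned their balance, the new counts stand beside it, rises first. Leaving out overlapping genes shortens most lists, and its counts are given where it turned the balance. The zona, decay, spindle, nucleolus and heat shock lists moved by less. Members that passed the filter through the embryos alone could only be higher, and through the eggs alone only lower. Besides Dux genes, embryos alone brought in 10 respiratory chain members and 5 each of the spliceosome and repair lists. They brought in 4 each of the zona, polymerase, replication and histone lists, and 3 each of storage, immediate early, ribosomal, nucleolar and Bcl-2 genes. Eggs alone brought in 6 nucleolar members and 3 each of the decay and repair lists.

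**Figure D3:**
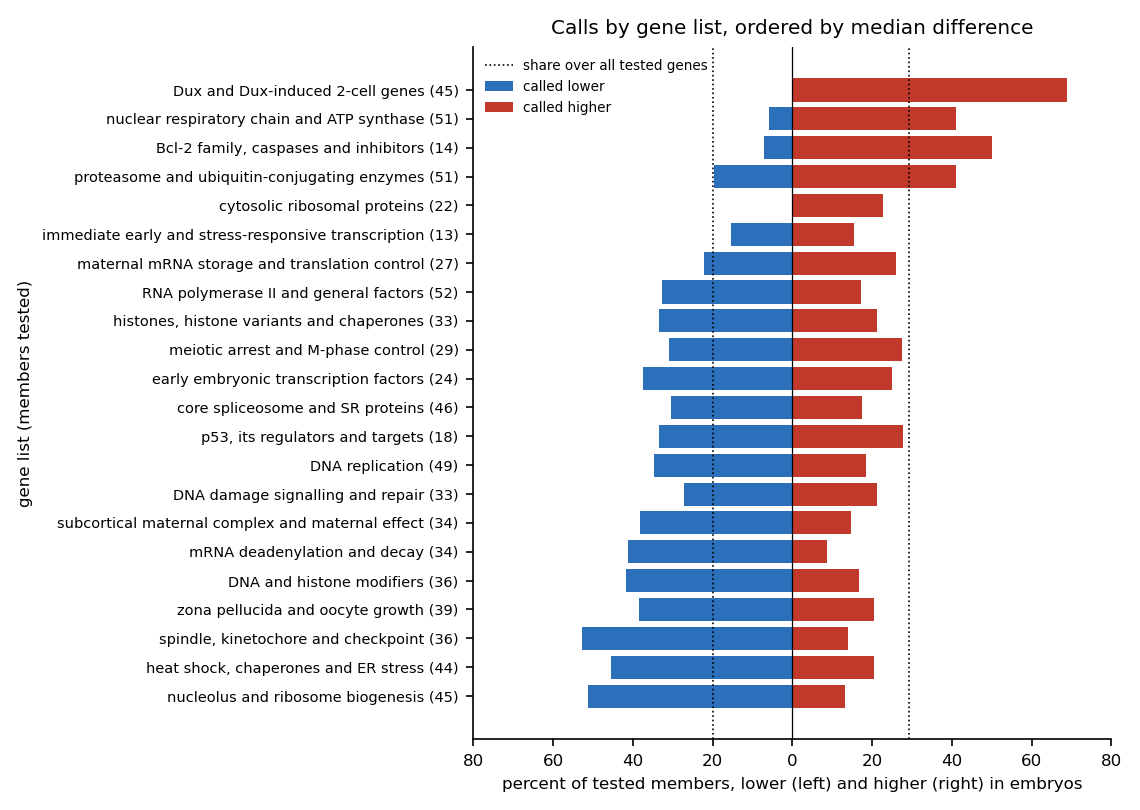
Share of the tested members of each gene list that were called lower (blue, left) or higher (red, right) in MZ-KO early 2-cell embryos than in eggs labelled KO, ordered by median log2 difference. Dotted lines give the shares over all 8305 genes, 20% lower and 29.2% higher. The Dux list has 31 of 45 members higher and 0 lower, and the spindle, heat shock and nucleolus lists have the most members lower.

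Genes of Dux and its 2-cell programme rose: 31 of 45 tested members rose and 0 fell (median 1.66). Of the 45, 33 passed the filter through the embryos alone and so could only be higher. With no filter 17 of the 45 rose and 0 fell, without MZ-KO libraries 1 to 3 the counts were 20 and 0 of 24, and without libraries 4 to 6 they were 25 and 0 of 29. Duxf3 (ENSMUSG00000075046, chromosome 10, 58229979 to 58232675, minus strand), the copy of Dux in the table, had 0, 0.102 and 0.23 FPKM in eggs and 0.764 to 8.81 (median 4.18) in embryos (log2 difference 2.04, SE 0.53, limma adjusted p = 0.01). All 6 embryos exceeded all 3 eggs. Like Zscan4d and Zfp352 below, Duxf3 was under 1 FPKM in every egg. These genes passed the filter through the embryos alone and so could only be higher. Zscan4d, of a family that marks the 2-cell stage, had 0.868, 0.276 and 0.649 FPKM in eggs and 1.99 to 33.6 (median 7.79) in embryos, with its highest value in library 4 and its lowest in library 5. Its call was lost with no filter (limma adjusted p = 0.067), without KO egg 2 (0.056) and without MZ-KO libraries 1 to 3 (0.075). Zfp352, a zinc finger gene of the 2-cell embryo, was listed at 0 in all 3 eggs and at 0.434 to 7.44 (median 2.86) FPKM in embryos, and its call was lost with no filter (limma adjusted p = 0.065). The members that changed most were Gm8332 (3.83), Derl3 (3.49), Arg2 (2.91) and Gm2022 (2.87), where Arg2 encodes an arginase, and the call of Gm2022 was lost with no filter (limma adjusted p = 0.069). Zscan4d and Zfp352, like Serpine2, Cox6a2, Zp3 and the named genes that were not called, lie outside the rule for named genes and were chosen after their values were seen. Copies of these families share reads, so values of single members are uncertain.

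RefSeq promoters (GRCm38.p6, 300 bases each) were searched on both strands for the core letters of the Dux motif, TGATT followed after any 1 base by AATCA, a palindrome. They were found in 11 of 27025 promoters (0.0407%) and in 0 of 4649 tested genes, which says only that these letters are not in these windows.

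In the list of meiotic arrest and M-phase control, 8 of 29 tested members rose and 9 fell (median -0.16). The balance turned to 9 and 5 of 29 without libraries 1 to 3 and 7 and 5 of 29 with no filter. Besides Mos, Fbxo5, which encodes the anaphase inhibitor Emi1, fell from 29.9, 49.7 and 35.3 FPKM to 5.32 to 15.3 (median 10.9). Mapk3, a MAP kinase, rose from 17.3, 7.93 and 5.92 FPKM to 29.995 to 53.6 (median 41.6). Cdc25b, a phosphatase that activates Cdk1, and the calmodulin gene Calm2 rose by 1.64 and 1.84. Cdk1 and its cyclin Ccnb1 were not called, at -0.33 and -0.34, though Ccnb1 was called lower without library 6 (limma adjusted p = 0.041) and without libraries 4 to 6 (0.017).

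Of the spindle, kinetochore and checkpoint genes, 5 of 36 tested members rose and 19 fell (median -0.43). Without MZ-KO libraries 1 to 3, 7 rose and 18 fell, and without libraries 4 to 6, 4 rose and 13 fell. The largest falls were Bub1b (-3.25), Smc3 (-3.14), Tacc3 (-1.34) and Cenpf (-1.24). Birc5, the survivin of the chromosomal passenger complex, rose from 49.2, 38.6 and 32.99 FPKM to 126 to 151 (median 142). Ttk (1.39), Aurka (1.36) and Spc25 (1.21) rose too, where Ttk is the checkpoint kinase Mps1 and Aurka a spindle pole kinase. The checkpoint genes Bub1b and Ttk thus changed in opposite directions.

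Genes of the zona pellucida and oocyte growth fell more often than they rose: 8 of 39 tested members rose and 15 fell (median -0.32). Zp3, a zona glycoprotein, went from 21.2, 30.1 and 22.8 FPKM to 5.23 to 15.8 (median 9.41), and Oosp1 and Plat fell by 1.52 and 1.34. Zp2 was not called (0.36). Izumo1r, the sperm receptor Juno, rose from 5.66, 4.62 and 3.82 FPKM to 15.1 to 38.4 (median 30.4), and Nobox, a transcription factor of oocyte growth, rose by 1.18. Of the maternal effect genes, 5 of 34 tested members rose and 13 fell (median -0.29), and 3 and 12 of 34 without libraries 1 to 3, 4 and 8 of 34 with no filter and 3 and 16 of 34 with median-ratio scaling. Dnmt1, the maintenance DNA methyltransferase, and Trim28, a co-repressor, fell by 1.52 and 1.05, and Nlrp5 and Zfp57 rose by 1.07 and 1.56.

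Of the genes for mRNA storage and translation, 7 of 27 tested members rose and 6 fell (median 0.00). This balance turned to 6 and 7 of 26 without libraries 4 to 6 and 6 and 9 of 27 with median-ratio scaling. Zar1, which binds stored mRNA, fell from 394, 298 and 123 FPKM to 22.7 to 59.9 (median 49.4). Pabpc1l, the embryonic poly(A)-binding protein, rose from 0.479, 0.467 and 0.099 FPKM to 4.14 to 8.05 (median 6.35), and Eif4e1b, an egg form of the cap-binding protein, from 11.7, 15.6 and 10.2 to 41.3 to 66.0 (median 59.7). The list's 7 rises and 6 falls of 27 were near the shares over all tested genes, 29.2% higher and 20% lower. Ybx2, a storage protein, rose by 2.25 and was higher in embryos 4 to 6 than in 1 to 3. In the list of deadenylation and decay, 3 of 34 tested members rose and 14 fell (median -0.31). Dicer1 (-1.20), Upf3b (-1.06) and Exosc3 (-0.94) fell, and Btg4, the adaptor of the deadenylase in maternal clearance, was not called (-0.05).

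Nucleolar genes had the lowest median of the lists: 6 of 45 tested members rose and 23 fell (median -0.58). Ncl, nucleolin, went from 38.9, 33.6 and 46.5 FPKM to 7.27 to 15.7 (median 12.1), though it overlaps small RNA genes. Lyar went from 10.6, 16.1 and 14.6 FPKM to 1.81 to 3.303 (median 2.34), and Gnl2 and Nop56 fell by 1.80 and 1.63. Imp4 (1.87), Nhp2 (1.62) and Imp3 (1.09) rose. Of 82 cytosolic ribosomal protein genes 22 were tested, of which 5 rose and 0 fell, against 3 and 1 of 20 without libraries 1 to 3, 2 and 0 of 19 without libraries 4 to 6, 2 and 0 of 22 with no filter and 4 and 1 of 21 with median-ratio scaling. Another 50 of the 82 were below 1 FPKM in all 9 libraries. How reads shared with pseudogene copies were counted is not given, so these low values cannot be read as absence of the mRNA.

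Heat shock and endoplasmic reticulum genes also fell more often: 9 of 44 tested members rose and 20 fell (median -0.44). Hspa5, the chaperone BiP, went from 28.2, 45.9 and 46.5 FPKM to 8.85 to 16.2 (median 11.7), and Dnajc3 (-2.06), Sdf2l1 (-1.81) and Hsp90aa1 (-1.69) fell. Of the transcription factors in this list, Atf4 rose by 1.57 and Ddit3, or CHOP, by 2.12, Hsf1 was not called (-0.26), and Atf6 and Xbp1 were below the filter. Ddit3 overlaps Mars in the annotation.

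Of the genes of the proteasome and of ubiquitin conjugation, 21 of 51 tested members rose and 10 fell (median 0.29). The excess of rises was smaller at 15 and 11 of 49 without libraries 1 to 3, 14 and 11 of 50 without libraries 4 to 6, 14 and 8 of 51 with no filter and 17 and 15 of 50 with median-ratio scaling. Within the proteasome, Psma7 of the core fell from 241, 303 and 264 FPKM to 22.6 to 67.2 (median 55.9), and Psmd7 of the lid fell by 2.12. Psmb2, also of the core, rose by 1.72. For nuclear genes of the respiratory chain, 21 of 51 tested members rose and 3 fell (median 0.48), against 18 and 6 of 46 without libraries 1 to 3 and 17 and 7 of 50 with median-ratio scaling. Of the 51, 10 passed the filter through the embryos alone and so could only be higher, and 0 through the eggs alone. Ndufa8 (1.64), Sdhd (1.44) and Cox6a1 (1.26) rose and Uqcrc2 fell by 1.80. All 15 mitochondrially encoded genes are listed at 0, so the table says nothing of them.

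Machinery of transcription moved in both directions, as did the tested genes as a whole. Of RNA polymerase II and its general factors, 9 of 52 tested members rose and 17 fell (median -0.04) (8 and 7 of 20 without overlapping genes), with Gtf2h5 (-1.58), Polr2d (-1.40) and Taf7 (-1.26) lower and Med28 (1.44), Polr2l (1.04) and Supt4a (0.98) higher. Of the spliceosome, 8 of 46 tested members rose and 14 fell (median -0.16) (5 and 10 of 42 without libraries 4 to 6), with Sf3b5 (-1.46) and Srsf7 (-1.44) lower and Sf3b3 (1.18) and Srsf9 (1.14) higher. Of the early embryonic transcription factors, 6 of 24 tested members rose and 9 fell (median -0.16), which turned to 8 and 7 of 24 without libraries 1 to 3 and 4 and 3 of 13 without overlapping genes. Obox2 fell by 1.81 and Nfya, a subunit of the CCAAT-box factor NF-Y, by 1.61, and Elf3 (1.53) and Zfp281 (1.14) rose. Of immediate early genes, 2 of 13 tested members rose and 2 fell (median 0.03), or 2 and 1 of 13 with no filter. Btg1 fell by 2.21, and Gadd45b (2.10) and Srf (1.47) rose.

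Chromatin genes were mixed, as were the tested genes as a whole. Of histones and their chaperones, 7 of 33 tested members rose and 11 fell (median -0.16), against 4 and 9 of 30 without libraries 1 to 3, 4 and 7 of 30 without libraries 4 to 6 and 3 and 6 of 33 with no filter, with H1foo and Hist1h2aa (-1.83) lower and the H3.3 gene H3f3a (1.84) higher. Of DNA and histone modifiers, 6 of 36 tested members rose and 15 fell (median -0.31), or 5 and 8 of 36 with no filter. Suv39h1, a methyltransferase for histone H3, rose from 2.54, 2.11 and 1.005 FPKM to 8.71 to 14.6 (median 11.97), and Dnmt3l rose by 1.55. For DNA replication, 9 of 49 tested members rose and 17 fell (median -0.22), against 7 and 9 of 47 without libraries 4 to 6 and 7 and 10 of 49 with no filter, with Gins3 (-1.16), Prim1 (-0.84) and Clspn (-0.84) lower and Gins2 (1.30), Cdk4 (1.21) and Fen1 (1.12) higher. For DNA damage and repair, 7 of 33 tested members rose and 9 fell (median -0.26) (7 and 15 of 33 with median-ratio scaling), with Brca2 (-1.02), Lig4 (-0.96) and Rnf8 (-0.91) lower and Rad52 (1.30), Xrcc3 (1.12) and Rad51d (1.04) higher.

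Of p53, its regulators and its targets, 5 of 18 tested members rose and 6 fell (median -0.17). The counts were 3 and 5 of 16 without libraries 1 to 3, 3 and 6 of 17 without libraries 4 to 6, 1 and 5 of 18 with no filter, 2 and 7 of 17 with median-ratio scaling and 3 and 2 of 9 without overlapping genes. The calls of Aen, Triap1 and Plk2, all higher in the embryos, were among those lost in some alternatives. Mdm2, the ligase that degrades p53, went from 9.19, 8.93 and 11.03 FPKM to 3.06 to 6.28 (median 4.71), and Usp7 and Mdm4 fell by 1.04 and 0.73. The target Bax, which promotes apoptosis, went from 2.45, 1.93 and 2.19 FPKM to 3.61 to 5.7 (median 5.17) (log2 difference 0.87, SE 0.15, limma adjusted p = 0.0013). Cdkn1a, the target that encodes p21, was not called, at 1.37, 1.33 and 2.59 FPKM in eggs and 0.666 to 3.39 (median 1.37) in embryos. In the Bcl-2 and caspase list, 7 of 14 tested members rose and 1 fell (median 0.34), against 5 and 0 of 13 without libraries 4 to 6, 5 and 0 of 14 with no filter and 6 and 4 of 14 with median-ratio scaling, with Birc5 (1.79), Endog (1.51) and Bax (0.87) higher.

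The same stages were compared in WT libraries, which are not shared with the knockout-labelled course. There, 4423 of 8619 tested genes were called (51.3%), 2623 higher (30.4%) and 1800 lower (20.9%). Over 7841 genes tested in both courses, the log2 differences correlated with Pearson's r of 0.861 and Spearman's rho of 0.840, as a description across genes. Of the knockout-labelled calls among them 76.0% were also WT calls in the same direction, and of the WT calls 71.7%. Another 15 genes were called in opposite directions.

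The difference between the courses was tested as one contrast over 4 groups and 20 libraries. Of 9676 genes 34 were called (0.351%), 21 with the higher and 13 with the lower change in the knockout-labelled course, and 1151 (11.9%) had an unadjusted p below 0.05. The median SE of the difference was 0.30 on the log2 scale. The count rested on single eggs: it was 78 without KO egg 1, 10 without KO egg 2, 10 without KO egg 3, and 15, 21 and 13 without WT eggs 1, 2 and 3. In 23 of the 34 genes the egg groups did not overlap and the embryo groups did, and in 5 the reverse held.

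**Figure D4:**
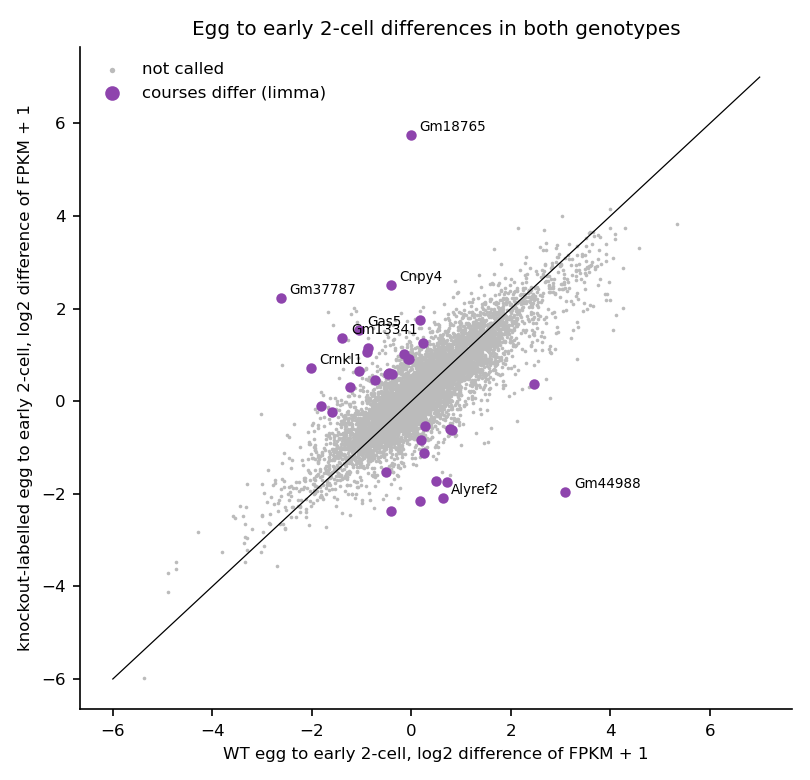
Log2 difference of FPKM + 1 between egg and early 2-cell embryo in WT (x axis) and in the knockout-labelled course (y axis) for each gene tested in both the knockout-labelled course and the contrast of courses, with the line of equal change. Most genes lie along the line, and genes whose courses differed (purple, limma) lie off it, Gm18765 farthest.

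Crnkl1, a splicing factor, had 6.996, 9.56 and 11.8 FPKM in eggs labelled KO and 7.61, 9.003 and 8.96 in WT eggs. MZ-KO embryos had 13.6 to 18.5 (median 16.1) and WT embryos 0.659 to 3.52 (median 1.16), so that the egg groups overlapped and the embryo groups did not (difference between the courses 2.73, SE 0.32, limma adjusted p = 0.00038). Ggct, a cyclotransferase of glutathione turnover, had 90.3, 99.8 and 108 FPKM in eggs labelled KO and 150.5, 115 and 112 in WT eggs. Both its egg groups and its embryo groups stood apart, with MZ-KO embryos at 28.3 to 40.5 (median 33.5) and WT embryos at 74.9 to 110.2 (median 87.03) (difference between the courses -1.02, SE 0.19, limma adjusted p = 0.022). Trp53 belongs with these (difference between the courses -1.98, SE 0.42, limma adjusted p = 0.044), but its call was lost in 22 alternatives, at adjusted p between 0.050 and 0.17.

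Other genes differed in the eggs. Cnpy4 had 4.84, 6.57 and 7.51 FPKM in eggs labelled KO and 25.4, 29.7 and 28.3 in WT eggs, while MZ-KO embryos had 23.5 to 59.7 (median 43.4) and WT embryos 11.5 to 27.04 (median 21.3) (difference between the courses 2.92, SE 0.37, limma adjusted p = 0.00074). Gas5, a host of small nucleolar RNAs, had 1.44, 0.227 and 0.364 FPKM in eggs labelled KO and 5.47, 3.64 and 3.204 in WT eggs (difference between the courses 2.58, SE 0.34, limma adjusted p = 0.00089). Its embryo groups stood apart as well, with MZ-KO embryos at 2.56 to 5.47 (median 3.55) and WT embryos at 0.599 to 2.22 (median 1.44). Gas5 overlaps 11 annotated genes, whose reads are not separated from its own. Gstp1, a glutathione transferase, had 13.5, 14.3 and 15.3 FPKM in eggs labelled KO and 29.1, 29.4 and 27.2 in WT eggs, and the embryo groups overlapped. For these 3 genes the eggs labelled KO were all below the WT eggs. Crnkl1, Cnpy4 and Gas5 stayed called in every alternative in which they were tested, and the other 11 of the 14 named genes lost the call in at least 1.

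**Figure D5:**
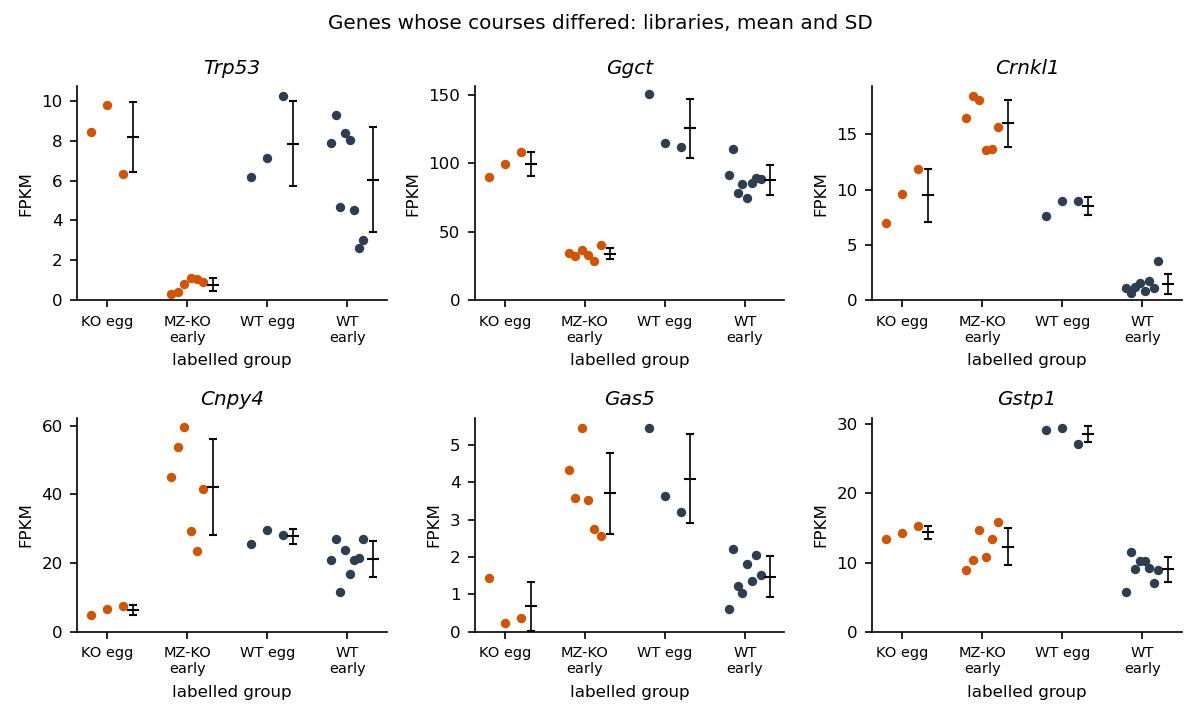
FPKM of 6 genes whose courses differed, in 3 eggs labelled KO, 6 MZ-KO early embryos, 3 WT eggs and 8 WT early embryos, with 1 point per library and the mean ± SD beside it. Trp53, Ggct, Crnkl1 and Gas5 have embryo groups that do not overlap, and Ggct, Cnpy4, Gas5 and Gstp1 have egg groups that do not overlap.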

How the data were processed

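RNA was measured in single mouse eggs and 2-cell embryos with SMART-seq v4, 5 uL of lysis buffer, 15 PCR cycles and Tn5 tagging, per the labels' protocols. The deposited table holds the authors' FPKM values per gene and library. The authors used TopHat2, DESeq and DESeq2 on build mm10, per the submitters' processing notes; how each was used and the versions are not given in the sources used here, and the authors' own comparison in the table was not used. Column headers give the group of a library and no replicate number, so libraries were numbered in column order.

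Low FPKM values were whole multiples of 1 read, within 0.1 read, in at least 99.6% of cases per library in genes spanning 300 to 2000 bp when length was the genomic span, and in at most 79.7% when it was the exon length. Introns therefore count in the length, levels of intron-rich genes are understated, and reads of overlapping genes are not separated: 87 of 191 named genes overlap another annotated gene. Annotation was GENCODE release M 21 (mm10), in which 54409 of 54532 identifiers were found, and 27 symbols turned into dates were restored.

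Values were tested as log2(FPKM + 1) with limma 3.58.1 (trend, robust, statmod 1.5.0) in R 4.3.3, on genes that reached FPKM 1 in 3 or more libraries. The pseudocount of 1 understates changes of low genes. Each course was fitted on its 2 groups and the difference between courses on 4 groups, with Benjamini-Hochberg adjustment over all genes tested. On simulated data over 8305 genes for the knockout-labelled course, 44 and 48 of 50 genes shifted down and up by 2 on the log2 scale were called, 21 and 28 of 50 shifted by 1, and 9 unchanged genes. Only 200 genes were shifted in the simulation, while 49.2% of genes were called in the data. The adjustment for multiple testing depends on this share, so these rates do not give the power of the reported test. Tables used Python 3.11.15, pandas 2.3.3, scipy 1.17.1 and matplotlib 3.10.9.

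Named genes were Trp53 and Duxf3, the 12 largest rises and falls (called, groups not overlapping, FPKM 5 or more in the higher group, span of 200 bp or more, no clone-based symbol), up to 4 rises and 4 falls per list, and up to 8 course differences per direction. The members and lists were chosen with earlier results of these data known. Alternatives were another pseudocount, filter, scaling, moderation and set of groups, a minimum span, and each library left out.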

Additional observations from a re-analysis of the deposited data

Results flagged for a closer look

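The courses of 14 named genes differed by limma's contrast, with log2 differences (knockout-labelled minus WT change) of -2.72 for Alyref2, -1.98 for Trp53, -1.44 for Rbm44, -1.03 for Rap2b, -1.02 for Ggct and -0.81 for Rttn. In the other direction they were 2.92 for Cnpy4, 2.73 for Crnkl1, 2.58 for Gas5, 2.02 for Rpe, 1.71 for Stk25, 1.71 for Dusp23, 1.54 for Diras2 and 1.36 for Gstp1.

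Among the 6 MZ-KO embryos, 1 library stood apart in 2 of 27 measures examined. Ube2a had 22.1 FPKM in library 3, above the other 5, and Rdx had 15.5 FPKM in library 6. Both stayed on the same side of all eggs. By chance about 1 in 20 groups is marked in this way.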

How the results depend on the processing

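No paired analysis was possible, because the labels tie no replicate number to a shared animal or day. The columns carry no replicate numbers either. For the knockout-labelled course, leaving out 1 library at a time gave 2978 to 4120 called genes, 1827 to 2425 higher and 1123 to 1695 lower. A filter of FPKM 5 gave 1968 (1112 higher, 856 lower) of 3390 tested, leaving out genes that overlap another gene gave 1928 (1173 higher, 755 lower) of 3887, and a minimum log2 difference of 1 gave 1858. These alternatives test fewer genes or ask for more. For the difference between courses, leaving out 1 library gave 10 to 78 called genes, 7 to 53 higher and 2 to 25 lower. A pseudocount of 0.1 gave 21 lower, a filter of FPKM 5 gave 21 in all with 6 lower, and no filter gave 11 (9 higher, 2 lower) of 35248. Leaving out overlapping genes gave 13 (8 higher, 5 lower) of 4565, leaving out MZ-KO libraries 1 to 3 gave 23 lower, and libraries 4 to 6, 33 higher. The cause was not tested where the genes tested were about the same. Of 191 named genes 182 were called between egg and embryo, against 49.2% of all tested genes, because the rule for naming takes mostly called genes. In at least 1 alternative 28 of these calls were lost, among them Aen, Triap1, Plk2, Nlrp4f, Pabpn1l and Rps23. Dusp23, not called, at -0.11, ranged from -0.26 to 0.0358 with 1 library left out (6.46e-06 without KO egg 1) and was 0.23 without MZ-KO libraries 1 to 3. Btg4 (-0.05) and Cdkn1a (-0.16), also not called, ranged with 1 library left out from -0.16 to 0.0143 and from -0.33 to 0.0439, Btg4 was 0.0946 without libraries 4 to 6 and Cdkn1a 0.10 without libraries 1 to 3.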

Other observations

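Of the 34 genes whose courses differed by limma's contrast, 15 lie on chromosome 1 (44.1%), where 615 of the 9676 tested genes lie (6.36%). Several of these overlap each other in the genome. The cause was not tested.

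The following clone-based loci, outside the rule for named genes, were picked after their values were seen. Gm18765 on chromosome 6 was listed at 0 in all 3 eggs labelled KO and had 36.0 to 75.9 FPKM in the 6 MZ-KO embryos, against at most 0.67 in the 8 WT embryos and 0.57 in the 3 WT eggs. Gm44988, also on chromosome 6, had 9.52, 14.8 and 15.4 FPKM in the eggs labelled KO and at most 0.12 in the WT eggs. In the MZ-KO embryos it had 0.04, 0.17 and 0 FPKM in libraries 1 to 3 and 11.3, 7.94 and 14.6 in libraries 4 to 6, the same sets that stand apart over all genes. Why these sets differ was not tested.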
